A study of Rattus norvegicus with 6 samples.

Results

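Collagens are the main structural proteins of the extracellular matrix, and each is a trimer of alpha chains encoded by separate genes. Fibrillar collagens form the tensile fibrils of connective tissue, network collagens form the sheets of basement membranes, type VI collagen forms beaded filaments around cells, and further types decorate or anchor these structures. In the heart most interstitial collagen is type I and type III, made largely by fibroblasts, while type IV lies in the basement membrane around each muscle cell. The collagen chain genes described here are the rows of the deposited table whose symbol has the form Col, a type number, a and a chain number. There were 42 such rows among 32623 genes: 10 fibrillar, 9 network, 5 beaded and 18 other chains. Col1a2, the partner of Col1a1 in most type I collagen, and Col6a3 were not analysed here.

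The libraries came from H9C2 cells, a myoblast line from embryonic rat heart, grown in medium with 1 g/L glucose. In the siFGFR1+HG group, labelled as FGFR1 knockdown, cells received FGFR1 siRNA and then 33 mM glucose for 8 h. In the HG group, labelled as control genotype, cells received 33 mM glucose for 8 h, and the Ctrl group was the same line left untreated. Each group held 2 libraries, with no control siRNA and no osmotic control named, so the siRNA cannot be told apart from transfection, nor glucose from osmolarity. Nothing in the labels says that libraries of 1 group came from separate cultures, so every p-value reflects the spread of these samples alone, and that spread may be technical.

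Total counts were 53339452 and 46960084 in siFGFR1+HG, 57813848 and 52488681 in HG, and 54149827 and 75021470 in Ctrl. Fgfr1 itself had counts of 4 and 0 in siFGFR1+HG, 0 and 0 in HG, and 0 and 4 in Ctrl, so the table could not show the knockdown. Among myoblast and muscle markers, 7 of 10 had at least 1 FPKM (fragments scaled to gene length and library size) in every library, among them Myod1 at 62.9 to 67.4 FPKM, while Myf5 was listed at 0. Their summed level was 316 and 313 FPKM in siFGFR1+HG, 365 and 365 in HG, and 398 and 396 in Ctrl. The list did not move as one. Tnnt2, a troponin gene, differed most in absolute FPKM, with 75.7 and 75.7 FPKM in siFGFR1+HG, 125 and 127 in HG, and 129 and 123 in Ctrl. Myog, Des and Myh3 were also lowest in siFGFR1+HG. Myh3 differed more than Tnnt2 in relative terms, with 4.35 and 4.64 FPKM in siFGFR1+HG, 8.44 and 7.73 in HG, and 9.97 and 8.30 in Ctrl. Cdh15, an adhesion gene of myoblasts, went the other way between siFGFR1+HG and HG, with 129 and 126 FPKM in siFGFR1+HG, 116 and 118 in HG, and 138 and 139 in Ctrl, as did Cav3 (23.2 and 22.6 FPKM in siFGFR1+HG, against 20.1 and 18.5 in HG). Of 10 fibroblast markers, 5 had at least 1 FPKM in every library and 5 stayed under 1 FPKM. Thy1 and Postn were abundant (141 to 155 and 399 to 473 FPKM), and Pdgfrb (42.3 to 53.5 FPKM) and Ddr2 (23.6 to 36.5 FPKM) were present. Pdgfra did not exceed 0.0338 FPKM, Dcn and Lum stayed under 1 FPKM, and Tcf21 and Fap were listed at 0. The 9 fibroblast markers other than Col1a1 summed to 660 and 672 FPKM in siFGFR1+HG, 623 and 606 in HG, and 671 and 704 in Ctrl. They did not move as one either. Ddr2 was highest in siFGFR1+HG (33.6 and 36.5 FPKM, against 28.5 and 27.4 in Ctrl). Postn was highest in Ctrl (440 and 473 FPKM, against 420 and 428 in siFGFR1+HG). All 6 endothelial markers in the table stayed under 1 FPKM, as did 5 of 7 leukocyte markers (Ptprc was listed at 0, and Cd14 reached 11.4 FPKM) and 4 of 6 cardiomyocyte markers. In the epithelial list only Krt8 reached 1 FPKM in every library (18.3 and 19.6 FPKM in siFGFR1+HG, 21.3 and 19.6 in HG, and 26.1 and 25.7 in Ctrl). In the chondrocyte list only Sox9 did (10.6 and 10.1 FPKM in siFGFR1+HG, 15.2 and 15.2 in HG, and 12.4 and 12.7 in Ctrl). The part of these marker levels in the collagen results was not tested, and in bulk RNA fewer cells of a type and less RNA per cell cannot be told apart.

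Some promoter stretches are shown first, from the RefSeq table of build GRCr8. It held 12 of the 15 chain genes tested below (Col1a1, Col3a1 and Col12a1 had no entry). Col4a1 and Col4a2 form a head-to-head pair whose RefSeq starts lie 77 bases apart on opposite strands of chromosome 16. The stretch between the starts is shown because the pair did not move together in these libraries. Upstream sequences of Col5a1 and Col5a2, which encode partner chains of type V collagen and which moved together, are shown beside it. Capitals mark matches to the TATA box TATAAA, the CCAAT box CCAAT or the GC box GGGCGG on either strand.
Between the starts of Col4a2 and Col4a1 (chr16:84885521-84885596, plus strand): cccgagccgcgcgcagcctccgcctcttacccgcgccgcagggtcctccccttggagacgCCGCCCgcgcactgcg
Col5a1, 250 bases before its start (chr3:31606630-31606879, plus strand): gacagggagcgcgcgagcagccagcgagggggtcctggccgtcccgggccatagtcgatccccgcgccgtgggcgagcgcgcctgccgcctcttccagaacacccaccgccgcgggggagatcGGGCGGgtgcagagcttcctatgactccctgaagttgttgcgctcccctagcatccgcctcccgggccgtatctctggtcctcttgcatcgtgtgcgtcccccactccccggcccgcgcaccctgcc
Col5a2, 250 bases before its start (chr9:55090152-55090401, minus strand): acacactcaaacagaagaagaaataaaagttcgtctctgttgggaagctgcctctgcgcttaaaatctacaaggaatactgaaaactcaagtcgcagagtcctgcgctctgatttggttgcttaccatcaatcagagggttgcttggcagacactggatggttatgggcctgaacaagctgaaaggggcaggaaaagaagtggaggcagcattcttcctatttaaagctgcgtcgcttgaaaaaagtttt
Within 250 bases before the start, 10 of the 12 chain genes held the GC box, against 30.5% of 33469 rat promoters. The 12 were chosen by their level in these libraries, whereas the 33469 were not. The windows of Col4a1 and Col4a2 overlap, so the match between their starts counts for both genes. The CCAAT box was found in 4 of the 12 (34% of all promoters) and the TATA box in 0 of the 12 (12.9% of all promoters). Col5a2 and Col15a1 had no GC box, so the partners Col5a1 and Col5a2 differed in these letters. A match describes letters only, and a link between these letters and the changes in level was not tested.

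By level, the collagen genes of H9C2 cells fell into 2 sets. In 15 genes the FPKM was at least 4.44 in every library, and these were the 15 that passed the filter for testing, which asked for 1 FPKM in at least 2 libraries. In the other 27 no library exceeded 0.712 FPKM. Closest to the filter from above was Col27a1 (4.44 to 6.32 FPKM), and just below it lay Col20a1 (0.193 to 0.712 FPKM) and Col18a1 (0.247 to 0.691 FPKM). No library of any collagen gene lay between these sets, so none passed through 1 group alone.

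**Figure D1:**
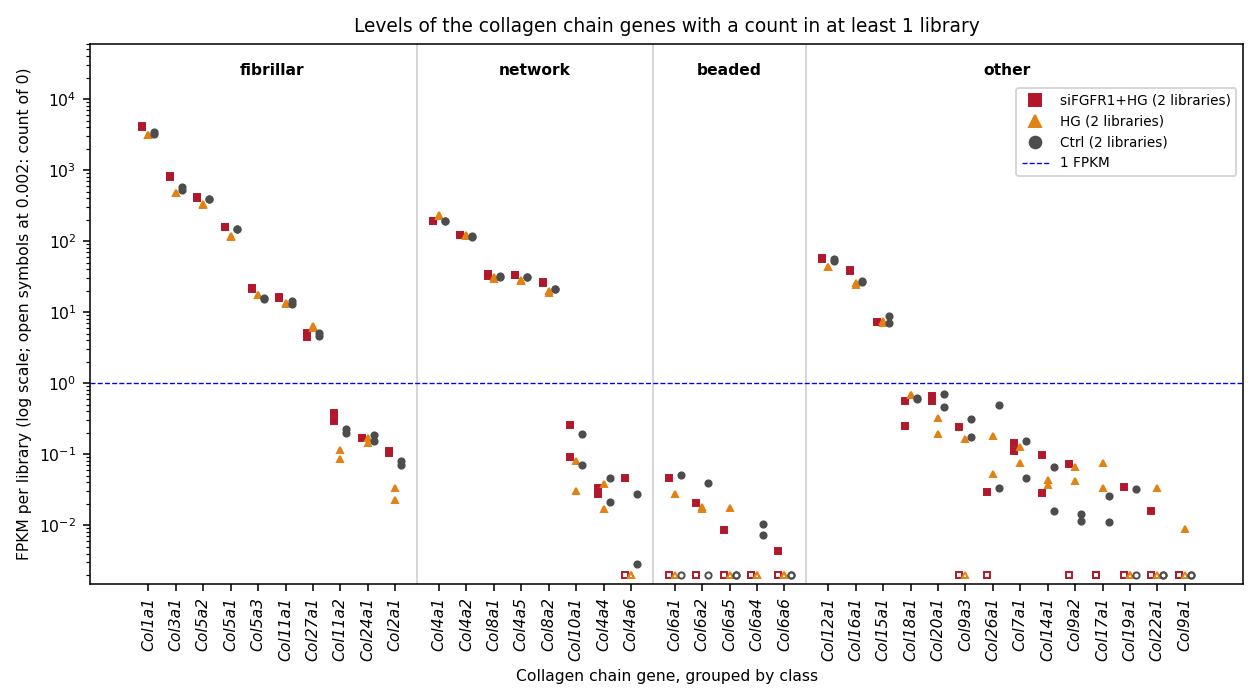
FPKM of each collagen chain gene with a count in at least 1 library (log axis), grouped by class; each symbol is 1 library, open symbols mark a count of 0 and the dashed line is 1 FPKM. The 15 tested genes lie between 4.44 and 4127 FPKM, and the beaded class lies wholly below 0.1 FPKM.

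Fibrillar genes held most of the collagen signal. Col1a1, which encodes the main chain of type I fibrils, ranked 7 and 8 among all genes by FPKM in the siFGFR1+HG libraries, 15 and 15 in HG, and 11 and 13 in Ctrl. It alone made up 67.0% to 68.4% of the summed FPKM of the analysed chain genes in each library, a sum without Col1a2 and Col6a3. Col3a1, the chain of type III collagen found beside type I in distensible tissue, followed at 474 to 814 FPKM. Next came Col5a2 (325 to 425 FPKM) and Col5a1 (116 to 158 FPKM), chains of type V collagen, which starts fibril assembly and limits fibril width. Col5a3, a further type V chain, and Col11a1, a type XI chain best known from cartilage, lay between 13.1 and 22.2 FPKM. The other fibrillar genes, Col2a1 and Col11a2 of cartilage and Col24a1, stayed at or under 0.376 FPKM.

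Of the basement membrane genes, Col4a1 (190 to 230 FPKM) and Col4a2 (115 to 123 FPKM) encode the chains of the widespread type IV trimer. Col4a5, whose product joins the more restricted type IV trimers, lay at 27.7 to 33.7 FPKM. Its partner chains were scarce: Col4a3 had 0 counts in all libraries, Col4a4 did not exceed 0.0465 FPKM and Col4a6 did not exceed 0.0464 FPKM. The short-chain network genes Col8a1 (29.7 to 34.7 FPKM) and Col8a2 (18.7 to 26.3 FPKM) were both present, while Col10a1, a marker of hypertrophic cartilage, stayed at or under 0.259 FPKM.

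All 5 beaded genes were near 0. Col6a1 and Col6a2, 2 chains of type VI collagen, had 0 to 9 and 0 to 12 counts per library. Among the other types, Col12a1 (43.3 to 58.0 FPKM) and Col16a1 (24.3 to 39.8 FPKM) encode chains that sit on the surface of fibrils, and Col15a1 (6.94 to 8.81 FPKM) encodes a chain of the basement membrane zone. The transmembrane genes Col13a1, Col23a1 and Col25a1 and the gene Col28a1 had 0 counts in all libraries. At these depths 3 counts correspond to 0.0400 to 0.0639 CPM (counts scaled to library size). Counts of 4 (2831 gene and library pairs) were more frequent than counts of 3 (1214) or 5 (734), so how many counts 1 fragment gave is unclear, and 12 counts correspond to 0.160 to 0.256 CPM. These limits cover counting error only.

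Cells given the siRNA before glucose were first set against cells given glucose alone. The tested fibril-surface and short-chain network genes rose, as did Col4a5 and all tested fibrillar genes but Col27a1. Col3a1 was 1.70-fold higher, Col16a1 1.57-fold and Col1a1 1.32-fold. Col4a1 and Col27a1 fell, and Col4a2 and Col15a1 were not called. In all, 11 of 15 tested chain genes rose, where 14.1% of all 12229 tested genes rose, and 2 of 15 fell, where 15.9% of all tested genes fell. Calls are from edgeR's quasi-likelihood test at a Benjamini-Hochberg adjusted p under 0.05 over all tested genes, and the adjusted p of the 13 called chains lay between 0.000233 and 0.0377. The median log2 fold change of the 15 chains was 0.34, beside -0.01 over all tested genes. The siFGFR1+HG and HG libraries did not overlap for 12 chains that were higher and 2 that were lower, where 30.4% and 36.1% of all tested genes had such values.

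**Figure D2:**
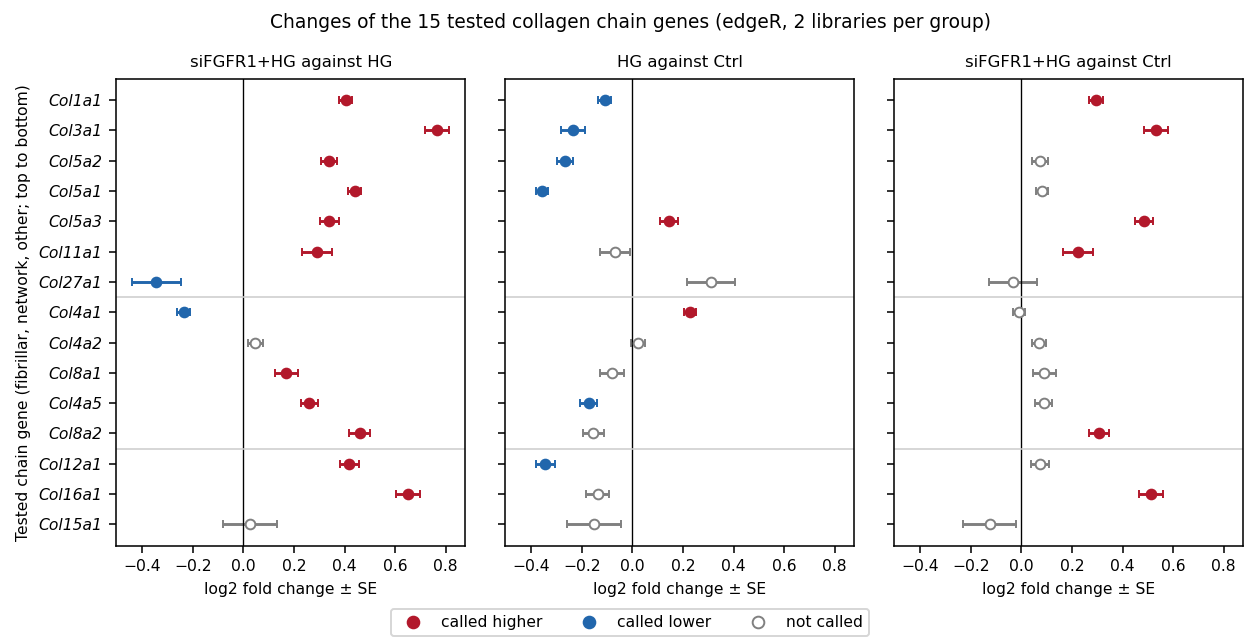
Log2 fold change (x axis, points) with its standard error (bars) for the 15 tested collagen chain genes in 3 comparisons, 2 libraries per group; red is called higher, blue called lower and open grey not called. In siFGFR1+HG against HG 11 points lie to the right and are called, while Col27a1 and Col4a1 are called to the left.

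All 6 of the fibrillar genes other than Col27a1 rose. Col1a1 had 4127 and 4074 FPKM in siFGFR1+HG, 3148 and 3107 in HG, and 3432 and 3231 in Ctrl. Col3a1 had 814 and 801 FPKM in siFGFR1+HG, 474 and 484 in HG, and 586 and 527 in Ctrl. For both genes the siFGFR1+HG libraries stood above all others and the HG libraries below all others, with no overlap. The log2 fold change between siFGFR1+HG and HG was 0.40 ± 0.03 (SE) for Col1a1 and 0.77 ± 0.05 for Col3a1. Because Col3a1 rose more, the level of Col1a1 relative to Col3a1 was 5.07 and 5.09 in siFGFR1+HG, 6.64 and 6.42 in HG, and 5.85 and 6.13 in Ctrl. A two-sided exact permutation test of this ratio between siFGFR1+HG and HG gave a p of 0.333. That is the smallest that 2 libraries against 2 can give, so the test could not decide whether the ratio differed.

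Type V genes followed the same direction. Col5a1 had 158 and 157 FPKM in siFGFR1+HG, 116 and 119 in HG, and 149 and 148 in Ctrl (log2 0.44 ± 0.02 for siFGFR1+HG against HG). Col5a2, which lies 33293 bases from Col3a1 on chromosome 9 in the coordinates of the table, had 406 and 425 FPKM in siFGFR1+HG, 325 and 338 in HG, and 390 and 398 in Ctrl (log2 0.34 ± 0.03). HG was the low group for both genes, and siFGFR1+HG lay just above Ctrl. Col5a3 had 22.2 and 21.4 FPKM in siFGFR1+HG, 17.4 and 17.4 in HG, and 15.4 and 15.7 in Ctrl (log2 0.34 ± 0.04). Unlike its type V partners it was lowest in Ctrl, so its order of groups was a step upward. Col11a1 averaged 16.2 ± 0.42 FPKM in siFGFR1+HG, 13.4 ± 0.24 in HG and 13.8 ± 1.02 in Ctrl (SD, n = 2 each), with a log2 fold change of 0.29 ± 0.06 for siFGFR1+HG against HG.

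**Figure D3:**
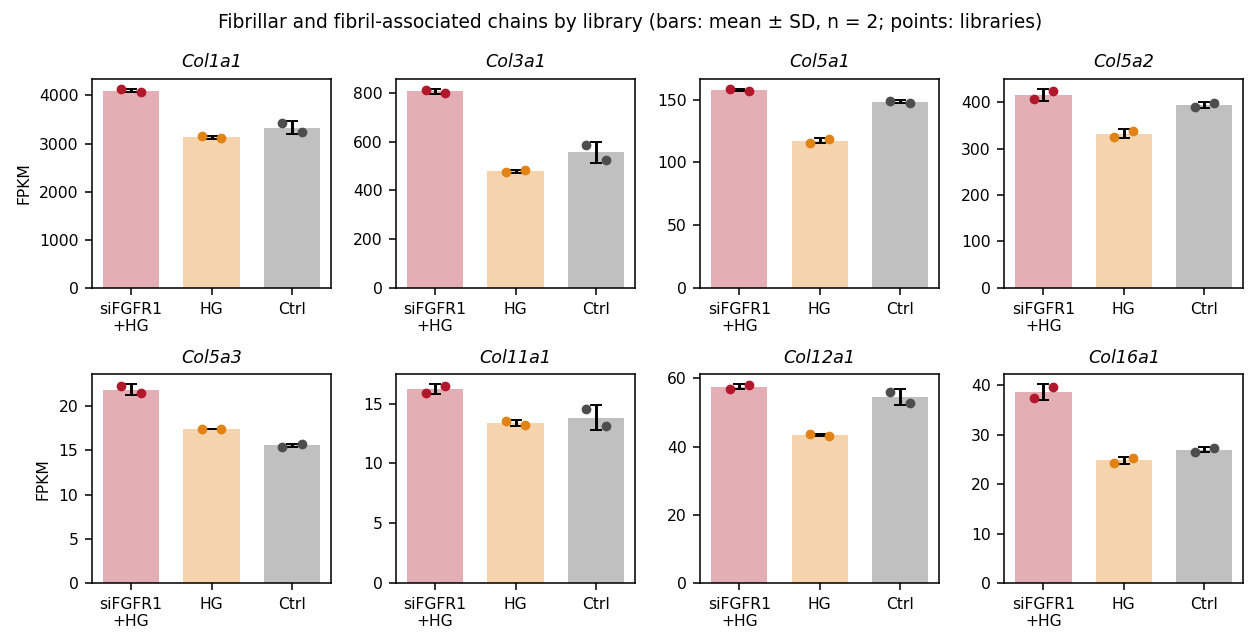
FPKM (y axis, from 0) of 8 fibrillar or fibril-surface chain genes in siFGFR1+HG, HG and Ctrl; points are libraries and bars are the mean ± SD of 2 libraries. The siFGFR1+HG libraries are the highest in each panel, and HG is the lowest group mean in all but Col5a3.

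The fibril-surface genes rose as well. Col16a1 had 37.5 and 39.8 FPKM in siFGFR1+HG, 24.3 and 25.4 in HG, and 26.6 and 27.4 in Ctrl, a log2 fold change of 0.65 ± 0.05 for siFGFR1+HG against HG. Col12a1 had 56.9 and 58.0 FPKM in siFGFR1+HG, 43.6 and 43.3 in HG, and 56.1 and 52.8 in Ctrl (log2 0.42 ± 0.04). For Col12a1 HG was the low group and siFGFR1+HG lay just above Ctrl, whereas for Col16a1 siFGFR1+HG lay well above both other groups. Col15a1 had 7.25 and 7.32 FPKM in siFGFR1+HG, 7.49 and 6.94 in HG, and 7.03 and 8.81 in Ctrl, with overlapping groups and no call (log2 0.03 ± 0.11).

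Network genes split. Col8a2 had 26.2 and 26.3 FPKM in siFGFR1+HG, 18.7 and 19.8 in HG, and 21.1 and 21.1 in Ctrl (log2 0.46 ± 0.04), and its partner Col8a1 had 32.8 and 34.7 FPKM in siFGFR1+HG, 29.7 and 30.9 in HG, and 32.1 and 31.2 in Ctrl (log2 0.17 ± 0.05). Both rose, but the groups of Col8a1 lay close together. Col4a5 had 33.7 and 33.0 FPKM in siFGFR1+HG, 27.7 and 28.5 in HG, and 30.8 and 31.7 in Ctrl (log2 0.26 ± 0.03).

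Col4a1 went the other way, with 190 and 195 FPKM in siFGFR1+HG, 228 and 230 in HG, and 193 and 193 in Ctrl. HG was its high group, and siFGFR1+HG overlapped Ctrl. Its log2 fold change was -0.24 ± 0.02 for siFGFR1+HG against HG. Col4a2, its trimer partner, had 122 and 123 FPKM in siFGFR1+HG, 118 and 121 in HG, and 115 and 117 in Ctrl, and was not called (log2 0.05 ± 0.03). The level of Col4a1 relative to Col4a2 was therefore 1.56 and 1.59 in siFGFR1+HG, 1.93 and 1.90 in HG, and 1.68 and 1.65 in Ctrl, with no overlap between any pair of groups (two-sided exact permutation p = 0.333 in each of the 3 comparisons, the smallest possible). In the coordinates of the table the Col4a2 row ends 83600 bases before Col4a1 begins, whereas the RefSeq starts shown above are 77 bases apart.

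**Figure D4:**
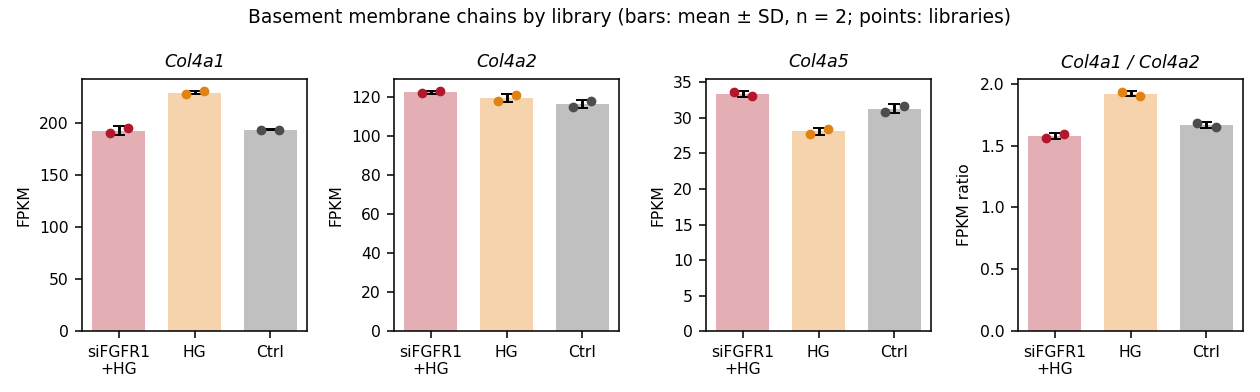
FPKM (y axis, from 0) of Col4a1, Col4a2 and Col4a5 and the ratio of Col4a1 to Col4a2 in siFGFR1+HG, HG and Ctrl; points are libraries and bars are the mean ± SD of 2 libraries. Col4a1 is highest in HG (228 and 230 FPKM), Col4a5 is lowest there, and Col4a2 stays at 115 to 123 FPKM.

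Col27a1, a fibrillar gene of cartilage, had 4.44 and 5.11 FPKM in siFGFR1+HG, 6.32 and 5.91 in HG, and 5.13 and 4.61 in Ctrl. It was the lowest of the tested genes and the other one that fell (log2 -0.34 ± 0.10 for siFGFR1+HG against HG). Its call was lost without HG 1 (adjusted p = 0.158, edgeR), without HG 2 (adjusted p = 0.0798) and without siFGFR1+HG 1 (adjusted p = 0.153). The call of Col8a1 was lost without any 1 library other than siFGFR1+HG 1 (edgeR adjusted p = 0.0568 to 0.177), and that of Col11a1 without HG 2 (0.0545) or siFGFR1+HG 2 (0.0769). The other 10 calls held in all 16 alternatives.

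The comparison of HG with Ctrl sets cells given 33 mM glucose for 8 h against untreated cells, and it cannot tell glucose apart from osmolarity. The type V genes Col5a1 and Col5a2 and the fibril-surface gene Col12a1 fell by 0.36 ± 0.02, 0.27 ± 0.03 and 0.35 ± 0.04 on the log2 scale, and Col4a1 rose 1.17-fold (log2 0.23 ± 0.02). Smaller falls were called for Col3a1 (log2 -0.24 ± 0.05), Col4a5 (-0.17 ± 0.03) and Col1a1 (-0.11 ± 0.03), and a small rise for Col5a3 (0.14 ± 0.04). So 6 of 15 chains fell, where 7.85% of all tested genes fell, and 2 of 15 rose, where 5.81% of all tested genes rose. The median log2 fold change of the 15 was -0.14, beside 0.00 over all tested genes. The HG and Ctrl libraries did not overlap for 4 chains that were higher and 9 that were lower, where 32.9% and 27.3% of all tested genes had such values. The edgeR adjusted p of the 8 called chains lay between 0.00119 and 0.0492.

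The 7 chains with no call were Col11a1, Col27a1, Col8a1, Col8a2, Col4a2, Col16a1 and Col15a1. Of these Col27a1 had the largest difference, 0.31 ± 0.10 on the log2 scale, with both HG libraries above both Ctrl libraries (edgeR adjusted p = 0.0813). Col8a2 had -0.15 ± 0.04 (adjusted p = 0.0549) and Col16a1 -0.14 ± 0.05 (adjusted p = 0.102), with both HG libraries below both Ctrl libraries for each gene.

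Only the calls of Col5a1, Col5a2, Col12a1 and Col4a1 held in all 16 alternatives for HG against Ctrl. The call of Col5a3 was lost without any 1 of the 6 libraries (edgeR adjusted p = 0.0672 to 0.216), that of Col4a5 without any library but siFGFR1+HG 2 (0.0502 to 0.124), that of Col1a1 without any library but Ctrl 2 (0.0660 to 0.153), and that of Col3a1 without either HG or either siFGFR1+HG library (0.0523 to 0.0961). The number of chains that fell was then 3 without HG 1, HG 2 or siFGFR1+HG 1, and 1 chain rose without any 1 of the 6 libraries.

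The comparison of siFGFR1+HG with Ctrl shows which chains differed from untreated cells when both siRNA and glucose were given. Col3a1 was 1.45-fold higher (log2 0.53 ± 0.05), Col16a1 1.43-fold (0.51 ± 0.05), Col5a3 1.40-fold (0.48 ± 0.04), Col8a2 1.24-fold (0.31 ± 0.04) and Col1a1 1.23-fold (0.29 ± 0.03). With Col11a1 (0.22 ± 0.06) that made 6 of 15 chains that rose, where 9.82% of all tested genes rose. The number that fell was 0 of 15, where 12.4% of all tested genes fell, and it was also 0 at an unadjusted p under 0.05, with DESeq2 and with limma. The edgeR adjusted p of the 6 called chains lay between 0.000507 and 0.0389, and the median log2 fold change of the 15 was 0.09, beside 0.01 over all tested genes. The siFGFR1+HG and Ctrl libraries did not overlap for 12 chains that were higher and 0 that were lower, where 32.9% and 30.9% of all tested genes had such values. The call of Col11a1 was lost without any 1 library other than Ctrl 1 (adjusted p = 0.0512 to 0.173).

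Col5a1, Col5a2, Col12a1, Col4a5 and Col4a1, all called in HG against Ctrl, were not called in siFGFR1+HG against Ctrl. Their log2 differences there were 0.08 ± 0.02, 0.07 ± 0.03, 0.07 ± 0.04, 0.09 ± 0.03 and -0.01 ± 0.02. Col5a1 came nearest to a call (edgeR adjusted p = 0.0596), and it was called higher with the DESeq2 Wald test and with a minimum of 5 FPKM. For all of these but Col4a1, both siFGFR1+HG libraries lay above both Ctrl libraries, as in 32.9% of all tested genes. The 3 comparisons share libraries, so the opposite signs of a gene in siFGFR1+HG against HG and in HG against Ctrl are not independent of each other.

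Summed over the 42 genes, collagen made up 1.15% and 1.14% of all FPKM in siFGFR1+HG, 0.848% and 0.839% in HG, and 0.964% and 0.915% in Ctrl. The groups did not overlap, and Col1a1 dominates the sum. The sum and the shares given here hold neither Col1a2 nor Col6a3. Without Col1a1 the collagen sum was 1930 and 1945 FPKM in siFGFR1+HG, 1451 and 1485 in HG, and 1645 and 1592 in Ctrl, in the same order. Fibrillar genes took 91.6% and 91.4% of the collagen FPKM in siFGFR1+HG, 89.2% and 89.0% in HG, and 90.5% and 89.9% in Ctrl. Network genes took 6.67% and 6.85% in siFGFR1+HG, 9.17% and 9.37% in HG, and 7.72% and 8.19% in Ctrl. HG was thus the group with the smallest fibrillar share and the largest network share. The muscle marker sum given above ran in another order, lowest in siFGFR1+HG (316 and 313 FPKM) and highest in Ctrl (398 and 396 FPKM). Its low value in siFGFR1+HG rests mainly on Tnnt2, its members went both ways, and its part in these shares was not tested.

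Over the 6 libraries, the log2(FPKM + 1) profile of Col1a1 was most like those of Sesn3 (Pearson r = 0.998), Selenon (0.997), Col3a1 (0.997), Map1a (0.996) and Acss2 (0.996). These values rest on 6 points in 3 groups and are a description. Among the other chains the likeness to Col1a1 ran from 0.975 for Col8a2 to -0.684 for Col4a1.

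Below the filter, 2 fibrillar or fibril-surface genes chosen after their values were seen had their lowest counts in HG. Col11a2, the type XI partner of Col11a1, had counts of 131 and 91 in siFGFR1+HG, 43 and 30 in HG, and 81 and 98 in Ctrl. Col20a1 had counts of 157 and 119 in siFGFR1+HG, 51 and 76 in HG, and 113 and 240 in Ctrl. HG was the low group for each without overlap, but the 2 genes were picked with these values known, so this is a description only. Both were called higher in siFGFR1+HG than in HG when no filter was applied, where 8.74% of all genes were called higher. Col2a1 also had its lowest counts in HG (29 and 24 in siFGFR1+HG, 10 and 6 in HG, and 19 and 29 in Ctrl). Col24a1 did not (38 and 34 in siFGFR1+HG, 36 and 38 in HG, and 42 and 48 in Ctrl). Col17a1, a chain of skin hemidesmosomes, had counts of 0 and 0 in siFGFR1+HG, 12 and 23 in HG, and 4 and 12 in Ctrl, at most 0.0743 FPKM. It was called lower in siFGFR1+HG than in HG when no filter was applied, where 10.5% of all genes were called lower. How many fragments such small counts stand for is unclear.

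The machinery that modifies, folds, exports and cross-links collagen, with its receptors and regulators, was read from 8 lists with 69 tested genes. In siFGFR1+HG against HG, 24 of the 69 rose and 2 fell, beside 14.1% and 15.9% of all tested genes. Their median log2 fold change was 0.10, beside -0.01 over all tested genes. In HG against Ctrl 13 rose and 6 fell, beside 5.81% and 7.85% of all tested genes, so the share that fell was near that of all genes. In siFGFR1+HG against Ctrl 25 rose and 3 fell, beside 9.82% and 12.4% of all tested genes. Of the genes named by rule, 22, 16 and 17 were called in the 3 comparisons in this order, and 10, 7 and 10 of them kept their call in every alternative run. Those described next are from among these.

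In the list of propeptide removal, Adamts2, the main procollagen N-proteinase, averaged 4.62 ± 0.926 FPKM in siFGFR1+HG and 2.40 ± 0.201 in HG (SD, n = 2 each), a log2 fold change of 0.96 ± 0.15. It was 1 of 2 genes that rose among 5 tested, and 0 fell. Of the 5 cross-linking genes 2 rose and 1 fell. Loxl2, a lysyl oxidase, rose to 55.8 FPKM on average in siFGFR1+HG, against 37.9 in HG (log2 0.57 ± 0.04), and it was lower in HG than in Ctrl (-0.47 ± 0.04). Loxl3, of the same family, fell in siFGFR1+HG against HG (-0.27 ± 0.04). Hydroxylation and glycosylation genes had 4 of 12 higher and 0 lower, and folding and export genes 2 of 14 higher and 1 lower, in siFGFR1+HG against HG. The share of folding and export genes that rose was thus near the 14.1% of all tested genes, and the small size of each list leaves its share imprecise. P4hb, the shared subunit of prolyl 4-hydroxylase, was higher in HG than in Ctrl (0.25 ± 0.02) and higher in siFGFR1+HG than in Ctrl (0.21 ± 0.02), although Col1a1 moved in opposite directions in these 2 comparisons.

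Among collagen receptors 3 of 6 rose and 0 fell in siFGFR1+HG against HG. For this list and those that follow, the shares over all tested genes in that comparison were 14.1% higher and 15.9% lower. These lists are small too, so their shares are imprecise. Itga11, the integrin chain that binds type I collagen, averaged 49.0 FPKM in siFGFR1+HG, 29.6 in HG and 21.4 in Ctrl, a rise of 0.74 ± 0.07 against HG and of 1.19 ± 0.07 against Ctrl. Ddr2, a receptor kinase for fibrillar collagen, rose by 0.57 ± 0.05 against HG. Of the proteoglycans and glycoproteins that bind fibrils, 4 of 5 rose and 0 fell, with Thbs1 at 0.41 ± 0.03 and Sparc at 0.18 ± 0.01 in siFGFR1+HG against HG. Collagen-degrading proteases had 2 of 6 higher and 0 lower. Of 16 regulators of collagen transcription 5 rose and 0 fell, among them Smad3, a signal carrier of the TGF-beta pathway (0.36 ± 0.06), and Ski, an inhibitor of that pathway (0.42 ± 0.05). In HG against Ctrl the ligand gene Tgfb2 rose (0.30 ± 0.03) and the transcription factor gene Sp1 fell (-0.32 ± 0.04).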

How the data were processed

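The deposited table gave, for 6 libraries of H9C2 cells, a count per gene, which the authors made with fastp, HISAT2 and StringTie (no versions given) per the submitters' processing notes. The deposited FPKM values, scaled by the authors to gene length and library size, hold 0.0001 where the count is 0. The notes name the human build GRCh38, but the gene identifiers are rat, so the build of the table's coordinates is not settled.

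The 12229 genes that reached 1 FPKM in 2 or more libraries entered a test on counts with edgeR 4.0.16 (R 4.3.3): TMM scaling (factors 0.994 to 1.01), 1 mean per group over all 6 libraries, quasi-likelihood test, Benjamini-Hochberg adjustment over all tested genes in each comparison, threshold 0.05. Values after ± are standard errors for log2 fold changes, worked back from the F statistic, and standard deviations for FPKM. Alternatives used limma 3.58.1 on log2 FPKM, DESeq2 1.42.0, other scalings and filters, and each library left out, where a lone library is assumed to vary like the other groups. Between the libraries of a group, on counts divided by 4, the chi-square per gene had a median of 0.696 to 0.806, where counting noise gives 0.455. The divisor is assumed, and the values do not show whether the libraries came from separate cultures.

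The collagen genes, classes, gene lists and tests were chosen with earlier results of these data known. Library values are given for the 3 most abundant tested genes of each class and, in each comparison, the 5 called chains with the largest rise and the 5 with the largest fall. From each list the 3 genes with the smallest p per comparison may be named, and not all are printed. The likeness to Col1a1 names the 5 most correlated tested genes. Col2a1, Col11a1, Col11a2, Col17a1, Col18a1, Col20a1 and Col24a1 fall outside this rule.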

Additional observations from a re-analysis of the deposited data

How the results depend on the processing

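For each of the 15 tested chains in each comparison, 16 alternatives were run, and no called value changed sign. In siFGFR1+HG against HG the count of chains that rose (11) was 9 to 11 among these 15 and likewise when 1 library was left out. Without the FPKM filter, where 37 chains were tested, it was 13 with Col11a2 and Col20a1 added. The count that fell (2) was 1 with limma on log2(FPKM + 1) or log2(FPKM + 0.1), with only the 4 libraries compared, or with the replicate number as a block. It was 1 to 2 when 1 library was left out, and 3 without the FPKM filter, with Col17a1 added. In HG against Ctrl the count that rose (2) was 1 with DESeq2 size factors in edgeR, without the FPKM filter, with either limma fit, with only the 4 libraries compared, with the replicate block, with counts divided by 4 (an alternative chosen after seeing the data), and whichever library was left out, but 3 with the DESeq2 Wald test. The count that fell (6) was 3 with either limma fit or only the 4 libraries compared, 3 to 5 when 1 library was left out, 7 with DESeq2 size factors or a minimum of 5 FPKM, and 8 with the DESeq2 Wald test. In siFGFR1+HG against Ctrl the count that rose (6) was 5 to 7, and the count that fell was 0 throughout.

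The labels do not say whether equal replicate numbers mark a shared culture. Deviations of same-numbered libraries correlated at -0.035 to 0.0688, which shows no strong shared deviation but cannot exclude a shared culture. The main fit did not pair the samples. With the replicate block 10 chains rose and 1 fell in siFGFR1+HG against HG, 1 rose and 5 fell in HG against Ctrl, and 5 rose and 0 fell in siFGFR1+HG against Ctrl. With a minimum of 5 FPKM, 17.7% of all tested genes rose in siFGFR1+HG against HG, beside the same 11 of 15 chains. Depth limits the 27 untested genes. The causes of these changes were not tested.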
